A study of Mus musculus with 11 samples.

Results

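The MHC class II antigen presentation pathway was followed across the fibrotic mouse kidney by 8 genes: H2-Aa, H2-Ab1, H2-Eb1, H2-DMa, H2-DMb1, Cd74, Ciita and Ctss. The members were chosen by symbol, and all 8 were found among the 28692 genes counted. Their messages were read in proximal tubule (PT), loop of Henle (LOH), distal tubule (DT), collecting duct principal (CD-P) and intercalated (CD-I), endothelial, myeloid and B cells, beside the empty droplets of the same libraries. The study compared kidneys of naive mice with kidneys collected at day 28 after unilateral ischemia/reperfusion (UIR), in which the left renal pedicle was clamped, or after unilateral ureteral obstruction (UUO), in which the left ureter was ligated for good. All mice were male C57Bl/6. Surgery was done at 10 weeks of age, and the age of the naive mice was matched. The operated mice received isoflurane and buprenorphine, and the controls were naive. There were 5 control, 3 UIR and 3 UUO single cell libraries, which are the replicates here. These numbers match the numbers of mice given in the methods, although no label names the animal behind a library.

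MHC class II molecules show peptides from endocytosed protein to CD4 T cells. H2-Aa and H2-Ab1 encode the alpha and beta chains of I-A, and H2-Eb1 encodes the beta chain of I-E, whose alpha partner is not made in C57BL/6 mice and was not analysed here. Cd74 encodes the invariant chain, which fills the groove until endosomal proteases, cathepsin S (Ctss) among them, cut it down to a short stub. H2-DM, the dimer of H2-DMa and H2-DMb1, then exchanges that stub for peptide. Ciita encodes the coactivator that sets class II transcription on, constitutively in dendritic and B cells and after interferon gamma in many others. In the kidney the resident macrophages and dendritic cells are the best known class II cells, and capillary endothelium and injured tubule have been described as inducible ones.

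The chain genes and both H2-DM genes lie together on mouse chromosome 17 (GRCm38, GENCODE vM21). H2-DMa is at chr17:34119541-34139101, H2-DMb1 at chr17:34153072-34160230, H2-Ab1 at chr17:34257689-34269419 and H2-Eb1 at chr17:34305867-34316674, all on the plus strand, with H2-Aa at chr17:34282744-34287823 on the minus strand. Ciita is at chr16:10480059-10528418 and Ctss at chr3:95526786-95556403, both plus. H2-DMa overlaps Brd2 and Ciita overlaps Dexi on the opposite strand, and how the counting treated strand is not given in the sources used here, so reads in those overlaps are uncertain. H2-DMb1 has a near-identical neighbour, H2-DMb2, and reads could be split between them.

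Class II promoters are known for a pair of conserved elements, the X box, bound by the RFX complex, and the Y box, bound by NF-Y, on which the Ciita protein assembles. The 2 windows below are shown because they carry that pair upstream of I-A and I-E chain genes. Both read 5' to 3' on the strand of the gene, from RefSeq (GRCm38.p6), with GNAAC, the start of the X box core, and ATTGG, the reversed CCAAT core of the Y box, in capitals.
H2-Aa, chr17:34287857-34287914, minus strand: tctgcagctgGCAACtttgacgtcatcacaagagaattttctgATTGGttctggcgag
H2-Eb1, chr17:34305766-34305822, plus strand: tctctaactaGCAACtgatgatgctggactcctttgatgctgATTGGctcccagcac
In H2-Aa 28 bases separated both stretches of capitals, which began 81 and 48 bases before the annotated start. In H2-Eb1 27 bases separated them, and they began 91 and 59 bases before it. The search took GNAAC followed by ATTGG at 23 to 33 bases on either strand, from 250 bases before to 50 after each RefSeq start. The pair was also present at H2-DMb1 (28 bases) and, among the class II genes outside the 8, at H2-Oa, H2-Ob and H2-Eb2. No match fell in the windows of H2-DMa, Ctss or H2-DMb2, and no window was given for H2-Ab1, Cd74 or Ciita. Over all windows of that length the pair occurred in 598 of 32851 (1.82%). The letters ATTGG alone were in 37.4% and GNAAC alone in 84.8% of windows. The search fixed order, strand and spacing together, so their parts in the rarity of the pair were not told apart.

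After filtering, 40580 cells were kept (10265 control, 16941 UIR and 13374 UUO), from libraries of 49503312 to 117043590 UMIs. Of the called barcodes, 56.9% to 78.9% in controls, 23.8% to 37.4% after UIR and 3.17% to 8.03% after UUO had over 30% mitochondrial UMIs. They were left out, so the share removed moved with the groups. Whether it followed RNA quality or the mix of cells was not tested. Its part in the results was not tested beyond a second limit of 15%, used below. The libraries shared 216 of 40363 distinct barcodes. Cells were clustered and classes named from marker genes. For each class the UMIs of all cells of a library were summed where there were at least 20 cells, and levels are given as UMIs per 1000000 UMIs of that sum (CPM). The controls came as 3 sets, Ctrl (replicate 1), N (replicates 2 and 3) and AN (replicates 4 and 5). Empty droplets were read as all barcodes with 10 to 100 UMIs, and again as the barcodes ranked 45000 to 90000 by UMIs.

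Most Cd74 UMIs sat in macrophages. Cd74, at chr18:60803848-60812652 on the plus strand, is taken first. Macrophages made up 3.98% of the control cells, 22.9% after UIR and 33% after UUO, and held 83.6%, 63.8% and 62.2% of the Cd74 UMIs of kept cells. Dendritic cells of type 2 (cDC2) added 7.99%, 16.7% and 19.4%. Macrophages held 49.1% of the H2-DMa UMIs after UUO and 45.5% of the Ciita UMIs after UIR. Proximal tubule, the most numerous control class, held 2.01% of Cd74 UMIs in controls and 0.12% in UUO. Over all kept cells of a library, Cd74 was at 748 to 1328 CPM in controls, 5067 to 6327 CPM after UIR and 8815 to 10901 CPM after UUO, ranges that did not overlap. These sums follow the number of immune cells as well as the message in each, and the 2 cannot be told apart in them.

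**Figure D1:**
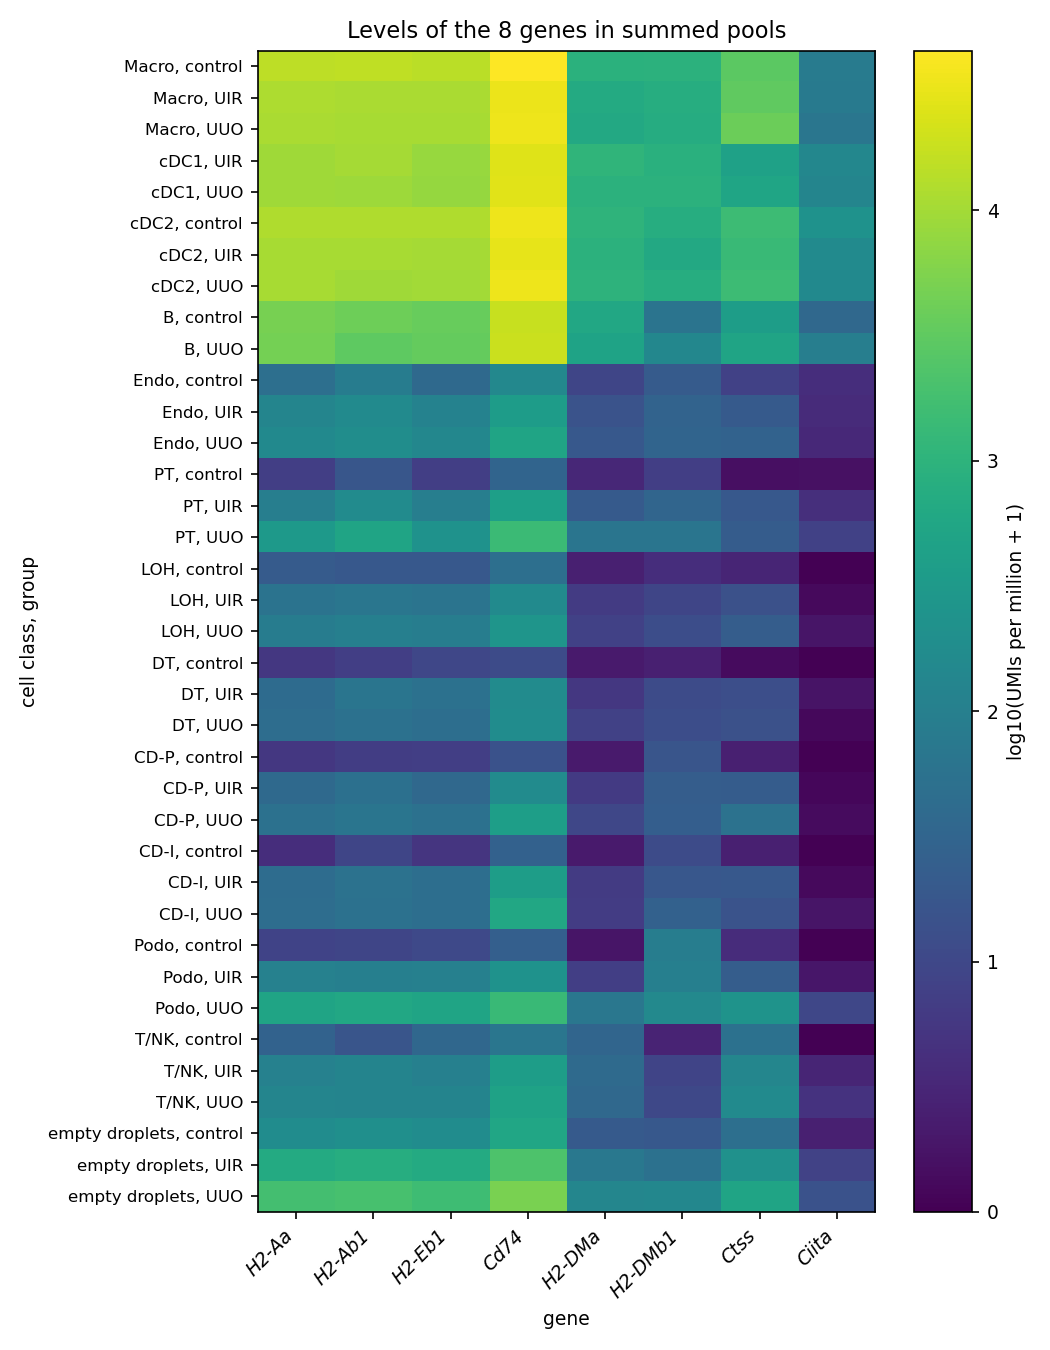
Log10 of CPM + 1 of each of the 8 genes (columns) in the summed cells of each class and group and in empty droplets of 10 to 100 UMIs (rows). Macrophages, cDC1, cDC2 and B cells are bright for the chains and Cd74 and much dimmer for Ciita. The control tubule classes are dark, with Cd74 at 10.4 to 47.4 CPM.

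In the UUO sums Cd74 was at 32747 CPM in macrophages, 32523 in cDC2, 26752 in cDC1, 18712 in B cells, 8039 in monocytes, 1476 in PT, 598 in CD-I, 503 in endothelium, 391 in CD-P, 261 in LOH and 180 in DT. Macrophages and both dendritic types overlapped in their ranges over libraries, and the same held for PT, CD-I, endothelium and CD-P. LOH overlapped endothelium, CD-P and DT, and CD-P overlapped DT. Within each UUO library, however, PT lay above endothelium, and endothelium above CD-P and LOH. CD-I also lay above CD-P, and CD-P above DT, in each. These orders were not tested. Ciita was at 162.7 CPM in UIR and 161 CPM in UUO cDC2, 139.6 and 129 CPM in cDC1, 95.4 CPM in UUO B cells, 77.3 and 66.3 CPM in macrophages, and at most 7.05 CPM in the summed tubule classes. No Ciita UMI was found in control LOH, DT, CD-P or CD-I, which allows at most 1.56, 1.16, 0.593 and 1.13 CPM, counting error only. Ctss had another order: macrophages (3875 CPM in UUO) lay above cDC2 (1538 CPM) and cDC1 (529.6 CPM).

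**Figure D2:**
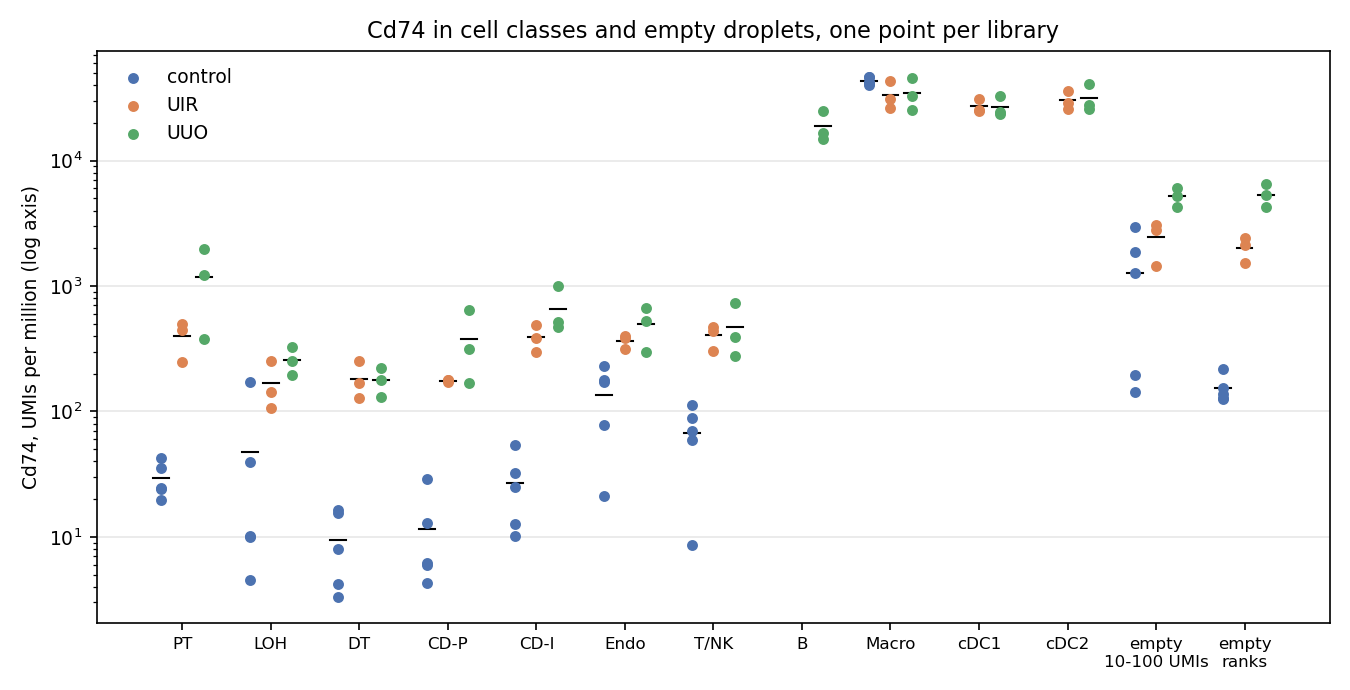
Cd74 in CPM (log axis) for each library, with a bar at the group mean, by cell class and in empty droplets read in 2 ways. Immune presenting cells lie between 14896 and 46683 CPM, injured tubule and endothelium between 106 and 1976 CPM, and control tubule mostly under 60 CPM, with control LOH replicate 4 at 171 CPM.

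Empty droplets held the same messages, with Cd74 at higher levels than in PT, LOH, DT, CD-P and CD-I of the same injured libraries. An unnamed tubular cluster, T7, described at the end, lay above the droplets of UIR replicate 2 in Cd74. Among droplets of 10 to 100 UMIs, Cd74 was at 2934, 1263, 1874, 193 and 142 CPM in control replicates 1 to 5, at 3087, 1439 and 2798 CPM in UIR and at 6091, 5245 and 4265 CPM in UUO. The control values followed the 3 sets, with Ctrl and N above AN, and overlapped UIR. Among droplets by rank Cd74 was at 126 to 219 CPM in controls, 1515 to 2400 CPM after UIR and 4261 to 6518 CPM after UUO, and no group overlapped another. The barcodes taken by rank were not alike between groups. They had medians of 222 to 371 UMIs in controls, 190 to 310 after UIR and 98 to 111 after UUO. A list of 7 PT genes summed to 11829 to 60065 CPM in those of controls, which reaches the 45355 to 66380 CPM of control PT cells, and to 1806 to 4305 CPM in those of UUO. Droplets of 10 to 100 UMIs were not alike either. They held 4342937 UMIs over 288423 barcodes in control replicate 5, and 1484443 over 25251 in UUO replicate 1. Their PT list summed to 7665 to 19125 CPM in controls, 3712 to 12971 after UIR and 2467 to 5384 after UUO. The part of these differences in the results was not tested. Ctss behaved like Cd74, at 7.90 to 12.1, 163 to 210 and 498 to 553 CPM by rank.

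In droplets of 10 to 100 UMIs the counts of 7 members could be tested, and none was called in any of the 3 contrasts. The test used throughout was edgeR's quasi-likelihood test over all genes of a class, with a call at an adjusted p under 0.05. Of all genes, 0% were called for UIR against control, 2.49% for UUO against control and 0% for UUO against UIR. Members with an unadjusted p under 0.05 numbered 0, 7 and 3, and DESeq2 called 0, 6 and 0. In droplets by rank 8 and 8 members were called against control and 5 between the models, and with only AN as controls 6 and 8 in droplets of 10 to 100 UMIs. The shares of all genes called in those settings are not given here. For UUO against control the log2 differences ran from 1.33 for H2-DMa to 1.99 ± 0.55 (SE) for Ctss, whose adjusted p was 0.0645. The tubule results below are therefore given beside these droplets.

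Resident and recruited macrophages clear debris and present antigen locally. H2-Ab1 and H2-DMa fell in macrophages of both models, and H2-Aa and H2-Eb1 in those of UUO. H2-Ab1 was at 15774, 15073, 14209, 17050 and 15003 CPM in control replicates 1 to 5, at 10575, 10694 and 12073 CPM in UIR and at 9958, 11852 and 9314 CPM in UUO. Every injured library lay below every control. On the log2 scale it fell by 0.47 ± 0.13 (SE) after UIR, with an adjusted p of 0.0197, and fell by 0.62 ± 0.13 after UUO, with 0.000828.

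H2-DMa, which with H2-DMb1 loads peptide, was at 981, 867.9, 755, 959 and 927 CPM in controls, at 649, 651 and 707 CPM after UIR and at 639, 648 and 572 CPM after UUO, again without overlap. It fell by 0.42 ± 0.12 after UIR (adjusted p = 0.0299) and fell by 0.59 ± 0.12 after UUO (adjusted p = 0.00104). H2-Aa and H2-Eb1 fell in UUO by 0.44 ± 0.14 and 0.46 ± 0.13 (adjusted p = 0.0337 and 0.0189). In all, 2 of 8 members were called in UIR and 4 of 8 in UUO, all lower, where 6.69% and 10.8% of all macrophage genes were called in either direction. The median log2 difference was -0.35 and -0.45 over the members, beside 0.04 over all genes in both contrasts. For UUO against UIR 0 of 8 were called, none at an unadjusted p under 0.05 and none by DESeq2, beside 2.53% of all genes.

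Cd74, Ciita and Ctss of macrophages were not called. Cd74 was at 40284 to 46683 CPM in controls, at 43092, 26357 and 31207 CPM in UIR and at 45621, 32849 and 25333 CPM in UUO. The first library of each model lay within the controls and the other 2 below them. Without UUO replicate 1, Cd74 differed by -0.68 and H2-DMb1 by -0.56 and both were called (adjusted p = 0.00687 and 0.0151). The UIR calls were lost without control replicate 2, 4 or 5 or without UIR replicate 1 or 2, the H2-DMa call also without UIR replicate 3. Of the UUO calls, H2-Aa was lost without control replicate 2, 3, 4 or 5 or UUO replicate 3, and H2-Eb1 without control replicate 2 or 4 or UUO replicate 3. Those of H2-Ab1 and H2-DMa in UUO held with any library left out. Ciita was at 50.4 to 103 CPM in controls, 58.0 to 86.3 CPM after UIR and 42.9 to 72.8 CPM after UUO, and Ctss at 2387 to 3526, 2960 to 3487 and 3341 to 4257 CPM.

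The macrophage class was made of different clusters in the 3 groups. In controls 242 of 408 macrophages were in a cluster with the Cx3cr1 type of markers, called I4 here, and that cluster held 438 UIR and 371 UUO cells. In UIR 1511 cells, and in UUO 2343, were in clusters I1 and I0, whose cells had medians of 706 and 833 UMIs. Within I4 the summed H2-Ab1 level was 16735 CPM in control, 13130 in UIR and 13944 in UUO, with library ranges of 15059 to 18221, 12699 to 13492 and 13040 to 14578 CPM that left the injured libraries below the controls. Cd74 in I4 overlapped between groups, at 44388 to 49447, 33898 to 55941 and 37259 to 69335 CPM. Ctss in I4 was at 2399 to 3723 CPM in controls, 3741 to 4130 CPM after UIR and 4031 to 5043 CPM after UUO. The lowest macrophage chains were in I10, a Trem2 type of cluster led by Lyz2, Mmp12 and Retnla that held 1 control cell. Its H2-Ab1 was 8103 CPM in UIR and 5501 CPM in UUO, and its Ctss 3548 and 4113 CPM. The members were left out of the clustering, and these cluster levels are descriptions with no test.

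Dendritic cells migrate to lymph nodes to prime T cells, cDC2 mostly CD4 and cDC1 mostly CD8 T cells. In the controls there were 23 cDC2 and 6 cDC1, too few for a test, so only UUO and UIR were compared. None of the 8 members was called in either type, where 0.242% of cDC2 and 0.226% of cDC1 genes were, and none had an unadjusted p under 0.05 or was called by DESeq2. Cd74 of cDC2 was at 36105, 25947 and 28960 CPM in UIR and at 40491, 26051 and 27972 CPM in UUO. Ciita of cDC2 was at 122, 167 and 187 CPM and at 122, 178 and 211 CPM. The models overlapped in each.

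A small cDC2 cluster, I17, led by Ccl17, Ccl22, Fscn1 and Ccr7, genes known from dendritic cells that mature and leave the tissue, had less of Ciita and H2-DM. Its 69 UIR and 104 UUO cells had Cd74 at 22428 and 29724 CPM, beside 30389 and 32771 CPM in the main cDC2 cluster I8. Ciita was 22.5 and 31.7 CPM beside 175 and 173 CPM. H2-DMa was 187 and 244 CPM beside 1022 and 1040 CPM, and H2-DMb1 was 109 and 99.8 CPM beside 665 and 846 CPM. The chains were closer, with H2-Aa at 7111 and 8927 CPM beside 11234 and 10918 CPM, H2-Ab1 at 4697 and 4471 beside 11132 and 10045 CPM and H2-Eb1 at 6388 and 7446 beside 10616 and 10006 CPM. Ctss was 851 and 969 CPM beside 1448 and 1588 CPM. The clusters were made without the members, and this is a description with no test.

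B cells take up antigen by their receptor and present it to helper T cells. They reached 20 cells in a library only in UUO, so no contrast could be made. In the 3 UUO libraries Cd74 was at 24958, 16704 and 14896 CPM, H2-Aa at 5528, 4262 and 4028 CPM, Ciita at 65.5, 95.5 and 121 CPM, and H2-DMb1 at 147, 117 and 152 CPM. The related H2-DMb2 was at 555 CPM in B cells and 17.2 CPM in macrophages of the UUO sums, while H2-DMb1 was at 141 and 752 CPM, with the doubt on split reads named above. UUO monocytes had Cd74 at 11493, 4056 and 8731 CPM and Ctss at 2329, 2302 and 2462 CPM.

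Proximal tubule takes up filtered protein and breaks it down in its lysosomes. Its members were called higher in both models, but for Ciita in UUO. H2-Aa was at 5.90, 3.87, 4.68, 8.21 and 8.13 CPM in controls, at 64.4, 108 and 98.8 CPM in UIR and at 596, 367 and 112 CPM in UUO. Cd74 was at 24.02, 24.6, 19.5, 35.3 and 42.6 CPM in controls, at 247, 448 and 497 CPM in UIR and at 1220, 1976 and 376 CPM in UUO. For both genes each injured library lay above each control, and UUO replicate 3 lay close to the UIR libraries.

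In PT of UIR all 8 of 8 members rose, beside 6.11% of all genes, with a median log2 difference of 3.53 (all genes -0.03). Ctss rose by 4.92 ± 0.29 (adjusted p = 5.56e-12), H2-Aa by 3.86 ± 0.34 (5.46e-05), Cd74 by 3.76 ± 0.51 (0.00173) and H2-DMb1 by 2.25 ± 0.31 (0.000566). Ciita rose by 2.38 ± 0.47 (adjusted p = 0.00114), on 7, 24 and 9 UMIs after UIR and 2 to 12 in each control. In UUO 7 of 8 rose, beside 2.57% of all genes, with a median of 4.79 (all genes -0.10). H2-Aa rose by 5.35 ± 0.44 (0.00013) and Cd74 by 5.12 ± 0.55 (0.00122). UUO had only 33, 30 and 65 PT cells. Without UUO replicate 2, the one with the highest H2-Ab1, 4 members were called, H2-Ab1, H2-DMa and H2-DMb1 being lost (adjusted p = 0.078, 0.0936 and 0.799). Its 5 Ciita UMIs were the only ones in UUO PT, and Ciita was not called (3.31 ± 1.05, adjusted p = 0.0735). Between UUO and UIR 0 of 8 members were called, beside 0.0527% of all genes. The genes H2-Aa, H2-Ab1, H2-Eb1, H2-DMa and Cd74, 5 in all, had an unadjusted p under 0.05 and DESeq2 called 1. The smallest adjusted p, 0.0693, was that of H2-Eb1 (1.18 ± 0.24).

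Macrophage markers moved with these genes in PT. Of a list of 8 (C1qa, C1qb, C1qc, Lyz2, Tyrobp, Fcer1g, Aif1 and Csf1r) 8 rose in UIR and 7 in UUO, by medians of 4.32 and 4.73. Summed, the list was at 10.1 to 16.2 CPM in control, 154 to 222 CPM in UIR and 183 to 1192 CPM in UUO PT, with none of the 8 at 0. Cd74 in PT was 8.02% to 31.1% of its level in the empty droplets (10 to 100 UMIs) of the same UIR library and 8.81% to 37.7% in UUO. PT cells of UIR with no UMI of the list (893 of 1869) had Cd74 at 369 ± 121 CPM (SD, n = 3), beside 397 CPM in all. In the 1 UUO library with 20 such cells (36 of 65) Cd74 was at 238 CPM, beside 376 CPM in all.

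**Figure D3:**
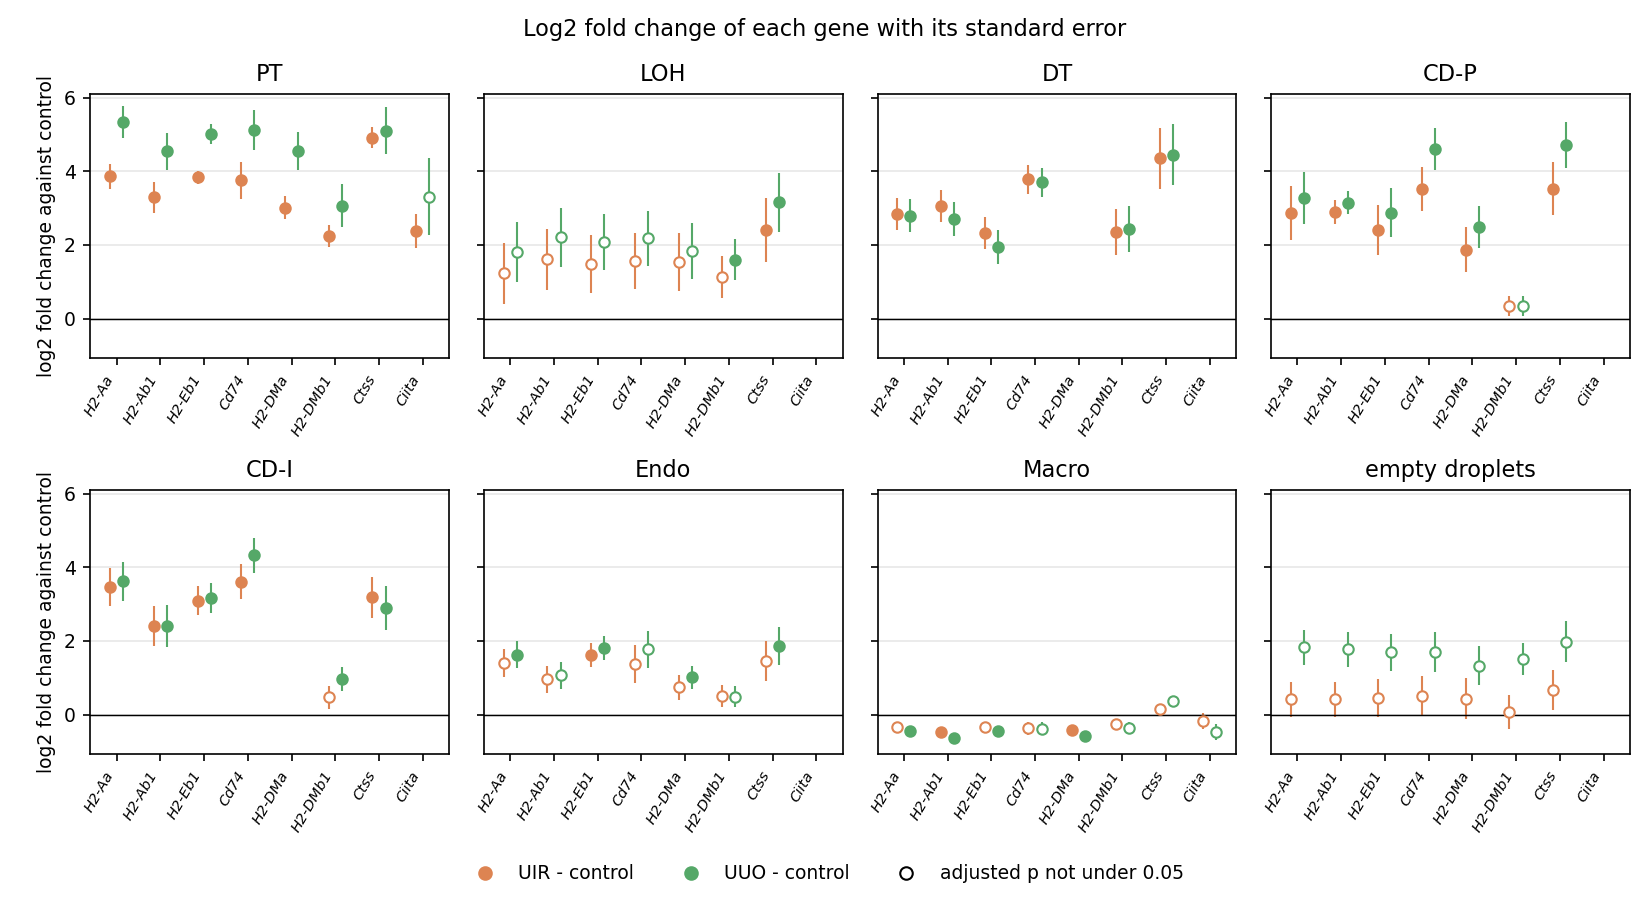
Log2 fold change against control with its standard error for each gene tested, UIR and UUO side by side, by cell class and in empty droplets of 10 to 100 UMIs; open points have an adjusted p not under 0.05, and a gene with no point was not tested. Most PT, DT, CD-P and CD-I points lie above 2, the LOH and endothelial points lower and mostly open, and the macrophage points near or below 0.

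The LOH, whose thick limb dilutes the urine, gave few calls. In the 5 controls Cd74 was at 9.98, 4.54, 10.1, 171 and 39.8 CPM, after UIR at 106, 255 and 142 CPM and after UUO at 197, 325 and 255 CPM. Control replicate 4 lay inside the UIR range, with its chains at 61.5 to 74.9 CPM. Control LOH cells with no macrophage-list UMI (297 of 310) had a mean Cd74 of 8.08 CPM, beside 47.1 CPM in all. The injured cells without such a UMI were at 123 CPM in UIR and 173.5 CPM in UUO, and in a test of these cells 4 and 4 members were called. Ctss rose in UIR (2.41 ± 0.87, adjusted p = 0.0463) and in UUO (3.16 ± 0.80, 0.00558), and H2-DMb1 in UUO (1.60 ± 0.56, 0.0242). That is 1 and 2 of 7 members tested, beside 16.6% and 19.2% of all genes called higher. Without control replicate 4, 4 and 7 members were called and Cd74 stood at 3.03 and 3.65 (adjusted p = 0.00708 and 0.00184). The shares of all genes called in this setting, and in the test of cells without a macrophage-list UMI, are not given here. The Ctss call in UIR was lost without control replicate 1, 2, 3 or 5, UIR replicate 3, or UUO replicate 2 or 3, and that of H2-DMb1 without control replicate 1, 2 or 3 or UUO replicate 2. The macrophage list summed to 1.995 to 88.2 CPM in control, 92.1 to 218 in UIR and 158 to 223 in UUO LOH, and 3 and 5 of its 8 genes rose. Different clusters held LOH in the groups: 264 of 310 control cells were in T9, while 872 UIR and 392 UUO cells were in T0, whose median was 824 UMIs. For UUO against UIR 0 of 7 members were called, beside 1.94% of all genes; Ctss had an unadjusted p under 0.05 and DESeq2 called 0.

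In DT, where sodium chloride uptake is fine-tuned, all 6 of the members tested rose in both models, beside 17% of all genes in UIR and 20% in UUO. Cd74 was at 16.2, 3.32, 4.23, 15.4 and 8.01 CPM in controls, 129, 250 and 169 CPM in UIR and 223, 178 and 131 CPM in UUO. It rose by 3.79 ± 0.39 (adjusted p = 5.85e-06) and 3.70 ± 0.40 (6.65e-06). The models overlapped, and both lay far above the controls. H2-Ab1 rose by 3.06 ± 0.43 and 2.71 ± 0.45, and Ctss, with 1 UMI in all control DT, by 4.36 ± 0.83 and 4.46 ± 0.84. Without control replicate 5, which held that UMI, the Ctss values were 6.899 and 6.997. H2-DMa and Ciita were too low to be tested, Ciita with 6 UMIs in all DT cells. The 6 calls in each model held with any library left out. Of the macrophage genes, 4 of 5 tested rose in both models, and the list summed to 4.81 to 15.4 CPM in control, 93.0 to 140 in UIR and 106 to 139 in UUO DT, with C1qa at 0 in controls. DT cells of UIR with no UMI of the list had Cd74 at 109 ± 6.35 CPM (SD, n = 3), beside 183 CPM in all. Control DT was mostly in clusters T5 (298 cells) and T12 (188), and injured DT in T3 (365 UIR and 197 UUO cells). The name of T3 was weak, with a marker score of 0.356 for DT and 0.342 for CD-P, so the DT comparison rests on clusters named with unequal certainty. Between UUO and UIR 0 of 6 were called, none at an unadjusted p under 0.05 and none by DESeq2, beside 1.86% of all genes.

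Principal cells of the collecting duct take up water and sodium. Here 6 of 7 members tested rose in each model, beside 9.37% of all genes in UIR and 18.5% in UUO. Cd74 was at 28.8, 6.16, 4.29, 5.99 and 12.8 CPM in controls, 177, 171 and 178 CPM in UIR and 640, 317 and 170 CPM in UUO. It rose by 3.53 ± 0.59 (adjusted p = 0.00361) and 4.61 ± 0.58 (0.000246). The UIR libraries were nearly equal, and UUO spread from their level upward. H2-DMb1 was the exception: it was at 8.62 to 23.7 CPM in controls and 17.1 to 31.0 CPM in the injured libraries, with differences of 0.35 ± 0.27 and 0.34 ± 0.27 (adjusted p = 0.441 and 0.346). Those turned to -0.32 and -0.58 with a mitochondrial limit of 15%, under which 1 member was called in UIR. Without control replicate 1, the log2 difference of H2-Aa was 5.126 in UIR and 5.516 in UUO in place of 2.875 and 3.265, and that of H2-Eb1 was 3.584 and 4.056 in place of 2.409 and 2.881. The UUO calls held with any library left out. In UIR between 3 and 6 were called, as H2-Eb1, H2-Aa or H2-DMa was lost without control replicate 1, 2, 3, 4 or 5, UIR replicate 1, 2 or 3 or UUO replicate 2. The macrophage list summed to 1.996 to 22.3, 63.4 to 116 and 107 to 131 CPM, and 4 and 6 of 6 tested rose. Control CD-P was in clusters T14 (157), T11 (115) and T17 (103), and UUO CD-P mostly in T8 (218). T14 also carried DT markers, with scores of 0.669 for CD-P and 0.571 for DT and Slc12a3 among its leading genes. For UUO against UIR 0 of 7 were called beside 6% of all genes, with Ctss at an unadjusted p under 0.05 and DESeq2 at 0.

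Intercalated cells secrete acid and base and are known to sense urinary infection. Their Cd74 was at 32.0, 10.1, 54.0, 12.7 and 25.0 CPM in controls (5 to 22 UMIs each), at 491, 300 and 384 CPM in UIR (633 to 933 UMIs) and at 995, 514 and 474 CPM in UUO (669 to 780 UMIs), and rose by 3.61 ± 0.47 (adjusted p = 0.000628) and 4.32 ± 0.47 (0.000123). H2-Aa was at 0 to 7.36, 37.0 to 46.1 and 27.2 to 77.8 CPM and rose by 3.46 ± 0.52 and 3.63 ± 0.53. In UIR 5 of 6 members tested rose, all but H2-DMb1, and in UUO 6 of 6, beside 9.09% and 12.1% of all genes. H2-DMb1 differed by 0.47 ± 0.32 in UIR (adjusted p = 0.349) and rose by 0.97 ± 0.32 in UUO (0.0226), a call that was lost without control replicate 2 or UUO replicate 1 or 3. The macrophage list summed to 4.03 to 16.1, 98.8 to 146 and 122 to 180 CPM, with Csf1r at 0 in controls, and 4 of 4 tested rose by medians of 3.35 and 3.93. Control CD-I was mostly in T6 (145 of 242 cells), a cluster of shallow cells, and injured CD-I was in T4 (258 UIR and 178 UUO cells) and T6. Between UUO and UIR 0 of 6 were called, none at an unadjusted p under 0.05 and none by DESeq2, beside 0.717% of all genes.

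The ratio of Cd74 to the chains was higher in CD-I than in the droplets. In CD-I there were 1.88 to 4.12 Cd74 UMIs for each UMI of H2-Aa, H2-Ab1 and H2-Eb1 together in the UIR libraries, and 2.92 to 5.18 in UUO. In empty droplets of 10 to 100 UMIs the ratio was 0.957 to 1.16 and 0.883 to 1.07, by rank 0.799 to 1.04 and 0.886 to 1.06, and in macrophages 0.856 to 1.17 and 0.916 to 1.27. CD-P was at 1.03 to 2.06 and 1.67 to 2.80, while LOH was at 0.880 to 0.964 and 0.903 to 0.977. B cells, DT (1.15 to 1.42) and T and NK cells (1.08 to 1.49) also lay above the droplets in UUO, and plasma cells of the 1 UUO library that had enough of them were at 4.17. Against Ctss, Cd74 of CD-I was at 17.6 to 25.2 in UIR and 30.4 to 52.0 in UUO, beside 7.03 to 17.2 and 8.45 to 11.8 in empty droplets and 11.9 to 13.8 and 9.43 to 12.6 in LOH. This ratio was not particular to CD-I. In UIR PT was at 17.2 to 31.5 and endothelium at 11.6 to 26.6, and in UUO B cells were at 32.5 to 38.7, cDC1 at 44.5 to 58.6 and PT, on 15 Ctss UMIs, at up to 185. The control ratio of CD-I, 1.68 over 41 chain UMIs, was too thin to compare. CD-I cells with no macrophage-list UMI had Cd74 at 352 ± 29 CPM in UIR (SD, n = 3 libraries, 225 of 511 cells) and at 476 and 620 CPM in the 2 UUO libraries with 20 such cells.

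**Figure D4:**
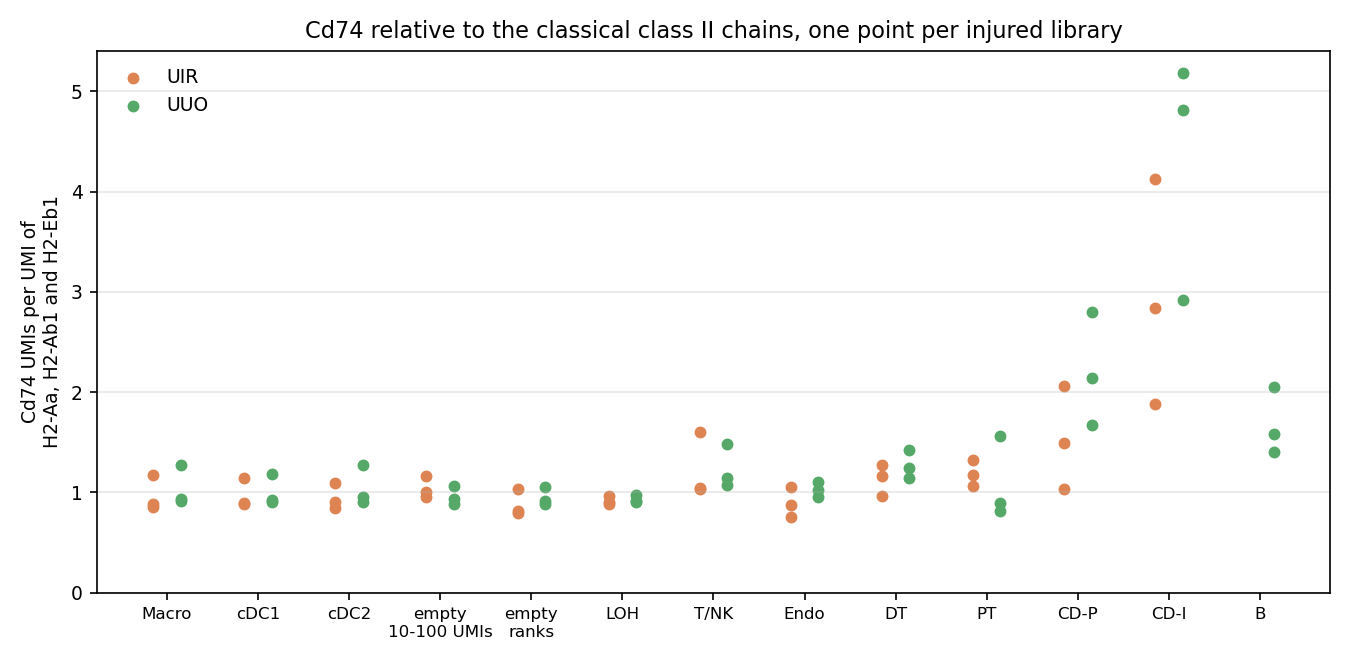
Cd74 UMIs for each UMI of H2-Aa, H2-Ab1 and H2-Eb1 together, by cell class and in empty droplets, with each point an injured library. Macrophages, dendritic cells, both readings of empty droplets and LOH lie near 1, CD-I at 1.88 to 5.18, CD-P up to 2.80 and UUO B cells at 1.40 to 2.05.

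T and NK cells, which in mice lack class II, were taken as the background for shares of cells with a UMI. They are not matched to the tubule. Their macrophage list summed to 368 to 577 CPM after UIR and 393 to 688 CPM after UUO, beside 98.8 to 146 and 122 to 180 CPM in CD-I. In control T/NK cells it was already at 394 to 742 CPM, with C1qa and Csf1r at 0, beside 4.03 to 16.1 CPM in control CD-I. The part of free macrophage message in the T/NK sums was not tested. With each cell thinned to 1000 UMIs, Cd74 was seen in 3.68% ± 3.82 of T/NK cells of the controls, in 25.4% ± 3.5 after UIR and in 25.5% ± 8.2 after UUO (SD over libraries). LOH (2.59%, 17.4% and 23.2%), DT (1.79%, 16.3% and 14.6%) and CD-P (1.25%, 13.8% and 26.3%) lay at or under that background or within its spread. CD-I was at 3.89% ± 1.99, 30.7% ± 3.8 and 47.6% ± 7.3, with the 3 UUO libraries at 42.5% to 55.9% above the highest T/NK library of 34.02%. PT was at 2.52%, 30.1% and, in 2 UUO libraries, 34% and 85.7%. Thinning left out 51, 86 and 15 CD-I and 2, 96 and 37 T/NK cells, and unthinned the CD-I shares were 10.3%, 70.4% and 89.7%. For H2-Aa the thinned CD-I shares were 1.24%, 7.30% and 7.43%, under the T/NK shares of 4.25%, 10.0% and 9.85%, so they did not stand above that background.

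Endothelium lines the vessels, and peritubular capillaries are known for class II. Cd74 was at 179, 171, 21.1, 78.1 and 229 CPM in controls, 396, 315 and 382 CPM in UIR and 664, 530 and 299 CPM in UUO. Control replicate 3 was the lowest, with the highest Ctss (22.7 CPM beside 1.69 to 10.5 CPM in the others). All injured libraries lay above the controls, yet Cd74 was not called (1.37 ± 0.51, adjusted p = 0.32, and 1.77 ± 0.50, 0.0576). In UIR 1 of 7 members rose, H2-Eb1 (1.61 ± 0.33, 0.0362), and in UUO 4 of 7, H2-Eb1 (1.81 ± 0.33, 0.00423), H2-Aa (1.63 ± 0.37), Ctss (1.86 ± 0.51) and H2-DMa (1.01 ± 0.32), beside 1.11% and 5.67% of all genes. H2-Eb1 in UUO held with any library left out. The UIR call was lost without control replicate 2, 4 or 5, any UIR replicate or UUO replicate 2, and the UUO count fell to 2 without control replicate 2 and to 1 without control replicate 4 or UUO replicate 1 or 2. The macrophage list summed to 8.37 to 430, 154 to 280 and 235 to 356 CPM, with Aif1 at 0 in controls, and 4 of 8 rose in each model. For UUO against UIR 0 of 7 were called, none at an unadjusted p under 0.05 and none by DESeq2, beside 2.66% of all genes.

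The endothelial message was not spread evenly. Cluster 10, led by Plvap, Fabp4 and Flt1, had Cd74 at 454 CPM in control, 630 in UIR and 967 in UUO, while cluster 8, with Ehd3 and Plat as in glomerular endothelium, had 39.2, 209 and 238 CPM and cluster 11, with Sox17, 48.5, 189 and 278 CPM. In control cluster 10 there were 423 Cd74 UMIs beside 3 of Ctss and 32 of the macrophage list, a ratio of 13.2 to the list where control empty droplets had 0.640 to 1.78. After UIR and UUO the ratio to the list in that cluster was 2.89 and 3.46, with 41 and 90 Ctss UMIs. Cluster 14, led by Fabp4, Emcn, Plvap and Flt1, held 28 control, 395 UIR and 415 UUO cells with a median of 886 UMIs. Its summed Cd74 was at 1071 CPM after UIR and 1568 CPM after UUO, above cluster 10, with ratios to the list of 1.13 and 1.35. In cluster 10 Ciita was at 6.44, 6.001 and 6.31 CPM in control, UIR and UUO, on 6, 13 and 20 UMIs, H2-DMb1 at 71.9, 77.6 and 80.5 CPM and H2-Ab1 at 257, 306 and 373 CPM. These levels are descriptions with no test, from clusters made without the members.

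To set each class against its own background, the change of a class was compared with that of the empty droplets in a single model with an interaction term. With droplets of 10 to 100 UMIs, Cd74 rose beyond them in CD-I by 3.02 ± 0.52 in UIR and 2.41 ± 0.52 in UUO (adjusted p = 0.0105 and 0.0234) and in CD-P by 3.18 ± 0.59 and 2.77 ± 0.59 (0.0164 and 0.0118). H2-Ab1 in CD-P, Cd74, H2-Ab1, H2-DMb1 and Ctss in DT, and H2-Aa, H2-Eb1 and Ctss in PT were also called in UIR. That is 1 of 7 members in CD-I in each model, 2 and 1 of 8 in CD-P, 4 and 0 of 7 in DT and 3 and 0 of 8 in PT. Over all genes 0.458% and 1.88% were called in CD-I, 0.53% and 4.24% in CD-P, 2.45% and 3.84% in DT and 0.577% and 0.136% in PT. The Cd74 calls were lost in CD-I of UIR without control replicate 1, in CD-I of UUO without control replicate 1 or any UUO replicate, in CD-P of UIR without control replicate 1 or UIR replicate 2 or 3, and in CD-P of UUO without UUO replicate 1 or 2. H2-Ab1 in CD-P was lost without the same libraries as Cd74 in UIR. Cd74 in DT held with any library left out, and the other DT calls were lost, 1 or more at a time, without control replicate 1, 2 or 3, UIR replicate 2 or 3 or any UUO replicate. Those of PT were lost in the same way without control replicate 1, 2 or 3, UIR replicate 2 or 3 or UUO replicate 1 or 3. In the classes at 0, members with an unadjusted p under 0.05 numbered 2 in DT and 6 in PT.

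LOH and endothelium had 0 of 8 members called beyond the droplets in either model, beside 1.4% and 2.82% of LOH genes and 0.0255% and 0.951% of endothelial genes. At an unadjusted p under 0.05 there were 0 and 0 in LOH and 1 and 1 in endothelium. Macrophages had 0 and 5 of 8 called, the 3 chains, H2-DMb1 and Cd74 (-2.48 ± 0.60 in UUO), all lower, beside 0.139% and 2.9% of genes in either direction. In macrophages by themselves Cd74 of UUO differed from control by -0.38 ± 0.18 (adjusted p = 0.196), while in the droplets it differed by 1.71 ± 0.54 (0.0873), so most of that value came from the droplets. None of the 5 was called without UUO replicate 1, 2 or 3, and 2 members were called without control replicate 4 or 5.

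These differences changed with how the droplets were read, and the cause was not tested. Against droplets by rank Cd74 stood at 0.73 and 0.48 in CD-I, 0.62 and 0.59 in CD-P, 0.82 and -0.18 in DT, 0.99 and 0.86 in PT, -1.14 and -1.39 in LOH and -1.27 and -1.82 in endothelium. None of the tubule Cd74 values was called, the direction turned in DT of UUO, LOH and endothelium, and Cd74 was called lower in endothelium of UUO (adjusted p = 0.0453). In PT of UUO H2-Aa (1.32) and H2-Eb1 (1.17) were called. In endothelium 5 and 8 members were called and in macrophages 8 and 8. The share of all genes called under this reading is not given here.

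Subtracting the empty-droplet profile from each pool before the test gave another view. Cd74 stayed called in CD-I and, in UUO, PT. In CD-I it stood at 3.62 and 4.29 with droplets of 10 to 100 UMIs (adjusted p = 0.00144 and 0.000315) and at 3.50 and 4.38 with droplets by rank (0.00563 and 0.00104), as the 1 member left in each contrast. In CD-P it stood at 4.20 and 5.81 with droplets by rank (adjusted p = 0.0219 and 0.00111), with an estimated free share of 31.2% in control replicate 5, beside 1.64% to 5.65% after injury. With droplets of 10 to 100 UMIs the subtraction left no Cd74 UMI in control CD-P, so the call made there is not used. In PT of UUO it stood at 5.18 and 5.54 under both readings (0.0328 and 0.0452). With droplets of 10 to 100 UMIs the members called numbered 7 and 7 in PT, 3 and 3 in CD-P, and 0 in LOH, DT and endothelium. The CD-P counts include the Cd74 calls that are not used. With droplets by rank they numbered 4 and 6 in PT, 2 and 3 in CD-P, 2 and 1 in DT and 0 in LOH and endothelium. The free share estimated by rank reached 100% in endothelium of control replicate 3 and was 50.7% and 42.3% in replicates 4 and 5, beside 3.98% to 14.97% in injured endothelium. In LOH it was 29.2% and 27.8% in control replicates 4 and 5, beside 3.71% to 9.71% after injury. In macrophages it was 15.4% to 100% of the control libraries, beside 6.06% to 26.2% after injury, and with droplets of 10 to 100 UMIs 16.01% to 93.9% beside 4.85% to 24.9%. The subtracted counts of CD-P, LOH, endothelium and macrophages therefore compare libraries that were corrected to unequal extent. So do those of PT and DT, and those of CD-I with droplets of 10 to 100 UMIs. In PT of UUO replicates 1 to 3 the share was 16.97%, 0.833% and 4.64% with those droplets, and 16.91%, 1.102% and 4.755% by rank. In CD-I it was 0.175% to 5.09% in controls with those droplets, beside 2.35% to 3.71% after injury. In DT it was 5.59% to 19.5% by rank in controls, beside 1.94% to 6.26% after injury. Cd74 in PT of UIR lost its call under both readings, at 3.75 and 3.86, with an adjusted p of 0.0518 and 0.0792.

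The control sets and the mitochondrial limit moved some counts. With only AN or only N as controls, PT had 7 and 8 members called in UIR and 6 and 6 in UUO, DT 4 and 5 in each model, CD-I 4 and 2 in UIR and 4 and 4 in UUO, and CD-P 2 and 3 in UIR and 6 and 5 in UUO. LOH had 0 and 1 in UIR and 0 and 2 in UUO, endothelium 0 and 0 and 3 and 1, and macrophages 0 and 0 and 2 and 1. Ctrl alone is a single library and gives no value of its own. Under a mitochondrial limit of 15%, LOH had 0 in both models, macrophages 0 and 2 and PT of UUO 4, and CD-I could not be fitted against control.

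Genes around the pathway moved by class. Their changes are not set beside the empty droplets here, so the part of free message in the tubule and endothelial counts below is not shown. Class I presentation shows peptides of the cytosol to CD8 T cells. All 8 class I genes tested rose in CD-I, DT and LOH in both models and in PT of UIR, 7 of 8 in PT of UUO, and all 9 in CD-P. In CD-I, B2m rose by 2.49 ± 0.20 and 2.95 ± 0.20, H2-K1 by 2.05 ± 0.28 and 2.75 ± 0.28 and the immunoproteasome subunit Psmb8 by 3.54 ± 0.32 and 4.01 ± 0.31 in UIR and UUO. Medians of the list were 2.27 and 2.85 in CD-I, 1.61 and 2.29 in CD-P, 2.71 and 3.40 in DT, 1.40 and 1.69 in LOH and 1.78 and 2.98 in PT. In macrophages 0 of 9 were called, and in endothelium 0 and 2 of 9 (H2-K1 and Tap1). These counts, and those of the lists that follow, stand beside the shares of all genes called higher in UIR and UUO, which were 9.09% and 12.1% in CD-I, 9.37% and 18.5% in CD-P, 17% and 20% in DT, 16.6% and 19.2% in LOH, 6.11% and 2.57% in PT, 1.11% and 5.67% in endothelium and 4.06% and 5.82% in macrophages. In macrophages 2.63% and 4.97% of all genes were called lower.

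Genes of the interferon gamma route were counted by class as well. Of 7 genes tested in CD-I 5 rose in both models, Ifngr1, Ifngr2, Jak1 and Gbp2 among them, in CD-P 6 of 7, in DT 5 of 7, in LOH 6 and 5 of 8, in PT 4 and 1 of 8, in endothelium 0 and 3 of 9 and in macrophages 0 of 9. Of 7 DNA-binding partners of Ciita (Rfx5, Rfxap, Rfxank, Creb1 and the 3 NF-Y genes) at most 2 rose in a class, and Nfyc fell in CD-P, DT and LOH in both models, by 0.55 to 1.18.

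In macrophages 6 of 7 endosomal genes tested rose in both models (Ctsb, Ctsd, Ctsl, Ctsz, Ifi30 and Lgmn), led by the aspartic protease Ctsd with 3.15 ± 0.18 and 3.65 ± 0.18. Lgmn, which makes the first cut in the invariant chain, rose by 0.54 ± 0.13 and 0.89 ± 0.13. H2-Oa, which with H2-Ob makes H2-DO, a restraint on H2-DM, fell by 1.90 ± 0.39 after UIR and fell by 1.86 ± 0.38 after UUO. H2-Ob fell by 1.42 ± 0.33 and 1.68 ± 0.33, so 2 of 3 related class II genes tested were lower. The costimulator Cd86 fell by 0.58 ± 0.17 in both models, and March1, a ligase that removes class II from the surface, fell in UIR (-0.57 ± 0.17, adjusted p = 0.0305) and differed by -0.46 ± 0.17 in UUO (adjusted p = 0.0714). Endosomal genes also rose in DT (6 and 7 of 7), LOH (6 and 5), CD-P (3 and 6) and CD-I (2 and 4), in PT 1 and 0, and in endothelium 0 and 2. These counts too are not set beside the droplets. Cd40 rose in CD-P and fell in endothelium (-0.93 ± 0.22 and -0.89 ± 0.21).

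The genes most like the 3 chains were sought over 39 class and group pools of at least 100 cells, by Pearson's r of log2(CPM + 1) among 8221 genes that reached 50 CPM. They were Ly86 (0.964), Pld4 (0.963), Aif1 (0.945), Plbd1 (0.922), Clec12a (0.915), Slamf8 (0.915), Rnase6 (0.912) and Lat2 (0.909). Of the members themselves H2-Aa, H2-Eb1 and H2-Ab1, which make up the sum, were at 0.997 to 0.999, Cd74 at 0.986, H2-DMa at 0.969, Ciita at 0.950, Ctss at 0.931 and H2-DMb1 at 0.888. The pools share libraries and free message, so these are descriptions.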

How the data were processed

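Single cell suspensions of whole kidney, made with a cold active protease, were measured with the 10x droplet assay in 5 control, 3 UIR and 3 UUO libraries. The files as deposited by the authors hold unfiltered UMI counts, empty barcodes included, and per the file headers these were written by Cell Ranger 3.1.0 against mm10. The study's methods name another version, and its removal of free RNA and doublets is not in the deposited counts. No authors' cell labels were used.

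Barcodes were called as cells from 500 UMIs with a test against the empty profile (10000 simulations, adjusted p under 0.01). Barcodes over 30% mitochondrial or 5% hemoglobin UMIs or under 200 genes, and the 7.5% highest doublet scores, were removed. Cells were clustered (scanpy 1.11.5, leidenalg 0.10.2, 2000 variable genes, 40 components, 20 neighbors, resolution 1) and named from marker genes. A class needed 20 cells in a library.

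Summed counts were tested with edgeR 4.0.16 (quasi-likelihood, TMM, filterByExpr, Benjamini-Hochberg over all genes of a class), with all 3 groups in a single model. DESeq2 1.42.0 was an alternative, and R was 4.3.3. On simulated counts for PT of UIR, edgeR called 95.9% of 97 genes changed by 4-fold and 58.5% of 94 changed by 2-fold, among 11139 genes. For macrophages of UIR the shares were 83% and 24.5%, among 9826 genes. The interaction test found 46.8% and 42.1% of the 4-fold genes in those classes and 3.3% and 3.12% of the 2-fold genes, among 11181 and 10232, and 7.84% and 14% of its calls were false. The simulation gave all genes the same fixed dispersion and had no control sets, so these shares need not hold for the data. Intervals of counts cover counting error only.

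The members and gene lists were chosen with earlier results of these data known. Named genes are the 8 members, genes of fixed pathway and marker lists, and the 8 genes most correlated with the chains. The labels share only title numbers across groups, which are not a stated pairing.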

Additional observations from a re-analysis of the deposited data

Results flagged for a closer look

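Among the controls, 6 of 60 sets of 5 values had a library set apart from the others, where chance gives about 1 in 20. In LOH control replicate 4 stood highest for H2-Ab1 (61.51 CPM), H2-Eb1 (69.53 CPM) and Cd74 (171.2 CPM). Ctss in DT stood out in control replicate 5 (1.602 CPM, from 1 UMI). H2-Aa in CD-P did so in control replicate 1 (13.09 CPM), and H2-Eb1 in CD-I in control replicate 3 (12.27 CPM).

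The other results singled out were differences between the change of a class and that of the empty droplets of 10 to 100 UMIs, each past an adjusted p of 0.05 in edgeR's interaction test. In CD-I Cd74 differed by 3.022 in UIR and 2.407 in UUO. In CD-P Cd74 differed by 3.181 and 2.769, and H2-Ab1 by 2.463 in UIR. In DT of UIR the values were 3.684 for Ctss, 2.402 for H2-DMb1, 2.627 for H2-Ab1 and 3.263 for Cd74. In PT of UIR they were 3.937 for Ctss, 3.360 for H2-Aa and 3.171 for H2-Eb1. In macrophages of UUO they were -2.075 for H2-DMb1, -2.659 for H2-Ab1, -2.561 for H2-Aa, -2.469 for H2-Eb1 and -2.477 for Cd74. Against droplets by rank the CD-I and CD-P values of Cd74 lost significance and the macrophage values kept it.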

How the results depend on the processing

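Values are numbers of members called unless a gene is named, and the causes of the changes were not tested. Shares of all genes called are given only for the main settings, so counts under other settings, here and above, stand without them. With 15% removed as doublets, CD-I had 3 and 3 (UIR and UUO against control), CD-P of UIR 3, endothelium of UIR 2 and macrophages of UUO 2. UUO against UIR in CD-P had 1, and Ciita in PT of UUO turned to -4.431. DESeq2 gave 1 for UUO against UIR in PT and 6 for UUO droplets. Without TMM factors LOH of UUO had 6 and PT between models 1. With no filter, endothelium of UIR had 5, macrophages of UIR 1, UUO against UIR 1 in CD-P, 1 in LOH and 2 in PT, and UUO droplets 2. In cells without a macrophage-list UMI, LOH had 4 and 4, endothelium of UIR 2 and CD-P between models 3; PT and DT of UUO and macrophages had too few such cells for a fit.

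With a mitochondrial limit of 15%, CD-P of UIR had 1, endothelium of UIR 0, LOH 0 and 0, macrophages 0 and 2, PT of UUO 4 and LOH between models 1, and H2-DMb1 in CD-P was -0.315 and -0.584. Subtracting free RNA (10 to 100 UMIs) left 1 and 1 in CD-I, 3 and 3 in CD-P, 0 in DT, LOH and endothelium and 0 in macrophages of UIR, with H2-Ab1 in CD-I of UUO at -0.476. The CD-P counts include the Cd74 calls that are not used. By rank, a choice made after seeing the data, it left 1 and 1 in CD-I, 2 and 3 in CD-P, 2 and 1 in DT, 0 in LOH and endothelium, 1 in macrophages of UIR and 4 in PT of UIR. Then H2-Ab1 was -0.020 and -0.010 and Ctss -1.789 and -1.547 in endothelium, H2-Aa -0.839, H2-Ab1 -0.159 and H2-Eb1 -0.293 in LOH of UIR, H2-Aa -0.019 in LOH of UUO and Ctss -0.014 in macrophages of UIR.

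With AN controls only, CD-P of UIR had 2, endothelium of UIR 0, LOH 0 and 0, macrophages 0 and 2, PT between models 1 and the droplets 6 and 8. With N only, CD-I of UIR had 2, CD-P of UIR 3, endothelium 0 and 1, macrophages 0 and 1 and PT between models 1. Then Ciita in macrophages was 0.334 and 0.033, and in UIR droplets H2-DMa was -0.062 and H2-DMb1 -0.069. With N and AN, LOH had 0 and 1, PT between models 1 and UUO droplets 5.

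Droplets by rank gave 8 and 8 members called in the droplets and 5 between models. Beyond them CD-P of UIR had 1, DT 0 and 1, endothelium 5 and 8, macrophages 8 and 8 and PT of UUO 2. H2-Ab1 in CD-P of UIR was -0.122, and Cd74 was -0.179 in DT of UUO, -1.268 and -1.821 in endothelium and -1.142 and -1.386 in LOH.

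Title numbers 1 and 2 are shared across groups, and the unnumbered replicate 1 of each group was left out here. Differences of number 1 from 2 correlated at -0.271 to 0.105 between sets across genes in 4 classes. Such correlations cannot show whether libraries of the same number shared a run. With the replicate block, endothelium of UUO had 2, LOH of UUO 1 and macrophages of UIR 4, beside 2, 1 and 5 in the same libraries with no block, and H2-DMb1 in CD-P of UUO was -0.031 and -0.061.

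Leaving out each library in turn gave 3 to 6 in CD-P of UIR, 0 to 2 and 1 to 5 in endothelium, 0 to 4 and 1 to 7 in LOH, 0 to 3 and 2 to 6 in macrophages, 4 to 8 in PT of UUO and 0 to 5 in UUO droplets. UUO against UIR gave 0 to 1 in CD-P, 0 to 1 in LOH and 0 to 2 in PT. Beyond the droplets the ranges were 0 to 3 and 0 to 1 in CD-I, 0 to 3 and 0 to 2 in CD-P, 1 to 6 and 0 to 1 in DT, 0 to 4 and 0 to 1 in PT and 0 to 6 in macrophages of UUO. Cd74 beyond droplets in endothelium of UUO ranged from -0.550 to 0.551, Ciita in PT of UUO from -4.845 to 3.818 and H2-DMb1 in UIR droplets from -0.154 to 0.441. Ciita rested on 2 to 24 UMIs in a PT library of control or UIR.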

Other observations

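Podocytes, which are no part of the classes above, had H2-DMb1 at 62.3 to 105 CPM in controls, 92.2 to 116 CPM in UIR and 131 to 225 CPM in UUO. Their Cd74 was at 3.54 to 62.7 CPM in controls, 208 to 264 CPM in UIR and 585 to 3151 CPM in UUO. Control podocytes were mostly in cluster 22 (228 cells), and UUO podocytes mostly in cluster 31 (180 cells), whose median was 937 UMIs. UUO replicate 1 had only 22 podocytes with 17771 UMIs. The part of free macrophage message in these values was not tested.

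An unnamed tubular cluster, T7, with Vcam1, C3, Ubd, Havcr1 and Ccl2 among its leading genes, held 11 control, 310 UIR and 74 UUO cells. Its Cd74 was 2399 CPM in the UIR sum and 4970 CPM in the UUO sum, with H2-Ab1 at 541 and 1291 CPM and Ctss at 21.2 and 8.001 CPM. UIR replicate 2 held 208 of the 310 cells, and Cd74 was at 1362, 2550 and 1017 CPM in the UIR libraries. UUO replicate 2 held 48 of the 74 cells, with Cd74 at 5149 CPM. In its UIR libraries there were 1.23 to 1.96 Cd74 UMIs for each UMI of the 3 chains. The cluster was made without the members, and the values are descriptions with no test.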
